A study of Homo sapiens with 14 samples.

Results

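The HOX clusters are the stretches of chromosomes 7, 17, 12 and 2 that hold the homeobox genes HOXA, HOXB, HOXC and HOXD. ChIP-seq peaks in these 4 stretches are described here in DU145 cells, a line established from a human prostate cancer. The members are all peaks with at least 1 bp inside an hg19 window around each cluster, flanks of about 20 kb included: chromosome 7 at 27110001 to 27270000 for HOXA, chromosome 17 at 46580001 to 46830000 for HOXB, chromosome 12 at 54310001 to 54470000 for HOXC and chromosome 2 at 176930001 to 177080000 for HOXD. These 720 kb held 193 of the 227479 peaks of the series, 186 in control cells and 7 in knockdown cells. Control cells carried a scramble construct and the others a stable EED knockdown, and both were selected with puromycin. All knockdown libraries carry the same construct label, sh3, so effects of that construct and of EED loss cannot be told apart. Each of 7 antibodies (EED, RING1A, RING1B, BMI1, H3K27me3, and a rabbit and a mouse antibody to ubiquitylated histone H2A, uH2A) gave 1 library in each cell line. There is therefore no replicate and no test between cell lines, and the intervals given are exact 95% binomial intervals that cover counting error only. Libraries held 1372 to 56011 peaks, every knockdown library had fewer peaks than its control. Read depth is unknown.

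HOX genes encode transcription factors that set position along the body axis, and their order along the chromosome follows the order of the body regions they pattern. They are the classic targets of Polycomb repression. PRC2, with EED as a core subunit that binds the mark, places H3K27me3, and PRC1, with RING1A or RING1B as ubiquitin ligase and often BMI1 as partner, places uH2A. By RefSeq gene order, HOXA runs from HOXA2 to HOXA13 and HOXB from HOXB1 to HOXB13 with rising coordinates, while HOXD runs from HOXD13 down to HOXD1. HOXC runs from HOXC13 down to HOXC8, and then HOXC4, HOXC5 and HOXC6 follow, ordered by where each gene starts. All 38 genes of the clusters named for this work are in that table. Its build, GRCh38, differs from that of the peaks, so genes are given by their order along a cluster and no peak is assigned to a single gene.

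Promoters of 20 of the 38 genes, with 27 start sites, were in the RefSeq promoter table of build GRCh38.p14. CpG dinucleotides, the sequence feature for which Polycomb targets are known, are in capitals below, in the 250 bases before 1 start site per cluster, 5′ to 3′. HOXA13 and HOXD12 are shown for the side of HOXA and HOXD on which H3K27me3 peaks were found, HOXC4 for the side of HOXC on which none was found, and HOXB1 because it is the only HOXB gene in the promoter table. The H3K27me3 peaks of HOXB lay mid-window, with none at either end. HOXA13 lies at chr7:27200092-27200341 on the minus strand, HOXD12 at chr2:176099545-176099794 on the plus strand, HOXB1 at chr17:48531012-48531261 on the minus strand and HOXC4, which shares this start with HOXC5, at chr12:54016638-54016887 on the plus strand.
HOXA13: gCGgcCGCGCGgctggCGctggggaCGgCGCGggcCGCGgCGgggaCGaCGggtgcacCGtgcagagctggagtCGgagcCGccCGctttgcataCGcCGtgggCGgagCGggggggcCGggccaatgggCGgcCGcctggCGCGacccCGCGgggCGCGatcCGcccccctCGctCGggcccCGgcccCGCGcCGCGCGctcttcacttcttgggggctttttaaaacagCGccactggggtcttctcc
HOXD12: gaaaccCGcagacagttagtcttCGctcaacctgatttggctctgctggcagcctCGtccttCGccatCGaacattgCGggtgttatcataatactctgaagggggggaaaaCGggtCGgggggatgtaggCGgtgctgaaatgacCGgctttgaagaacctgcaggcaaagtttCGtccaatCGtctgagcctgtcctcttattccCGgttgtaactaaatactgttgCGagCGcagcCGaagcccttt
HOXB1: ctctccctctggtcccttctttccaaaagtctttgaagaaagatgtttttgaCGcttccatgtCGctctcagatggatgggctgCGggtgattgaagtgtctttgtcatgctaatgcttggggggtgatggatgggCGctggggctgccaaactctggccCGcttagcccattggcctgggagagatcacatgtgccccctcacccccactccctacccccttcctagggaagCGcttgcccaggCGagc
HOXC4: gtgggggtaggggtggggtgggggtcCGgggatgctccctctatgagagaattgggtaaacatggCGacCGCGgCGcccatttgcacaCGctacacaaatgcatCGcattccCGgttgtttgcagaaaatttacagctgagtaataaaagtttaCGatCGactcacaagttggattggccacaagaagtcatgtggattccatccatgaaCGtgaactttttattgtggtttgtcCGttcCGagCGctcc
HOXA13 had 40 CpGs, more than 97.8% of the 35116 promoters in the table, HOXD12 had 16, HOXC4 14 and HOXB1 7. In the other genes the CpG count varied on either side. HOXA4, HOXA6 and HOXA7, away from the HOXA13 side, had 26, 27 and 28, but HOXA2 had 8 and the HOXA3 starts had 0 to 26. HOXA11, the neighbour of HOXA13 in the table, had 11, and the HOXA10 starts had 19 and 24. HOXD1, at the far end from HOXD13, had 31, HOXD3 21 and HOXD4 4, beside 21 in HOXD13. The median was 19.0 over the 27 HOX start sites and 11.0 over all promoters. It was 22.0 over the 8 HOXD sites, from 4 in HOXD4 to 31 in HOXD1, and 19.0 over the 16 HOXA sites. HOXB and HOXC have only 1 and 2 sites in the table. Whether these letters lie under a peak was not tested, since the builds differ.

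In control cells the 4 clusters carried different sets of Polycomb peaks. HOXA had peaks of 6 of the 7 antibodies, 62 in all. HOXC had 43 peaks of 5 antibodies and HOXB 32 peaks of 4. HOXD had 49 peaks of 3 antibodies, and 46 of them were H3K27me3. RING1B had no peak in any cluster in either cell line. Knockdown cells had 1 peak in HOXA, 1 in HOXB, 5 in HOXC and none in HOXD, all 7 of them with the uH2A antibodies.

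**Figure D1:**
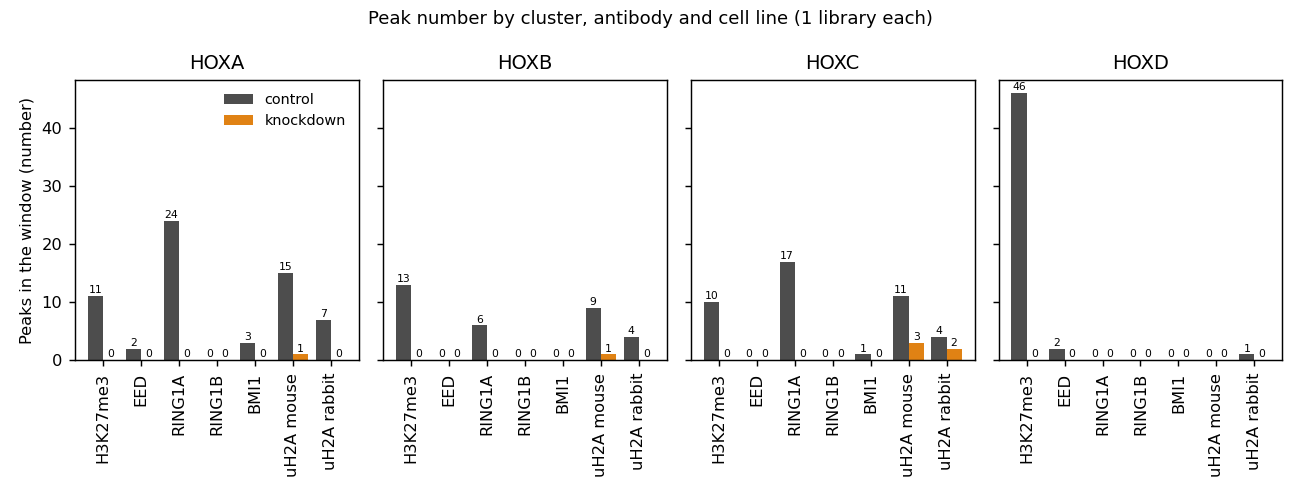
Number of peaks (vertical axis) by antibody (horizontal axis) in each HOX window, in control (grey) and EED knockdown cells (orange), 1 library per bar with its value above it. HOXD holds 46 H3K27me3 peaks and no RING1A peak, HOXA holds 24 RING1A peaks, and the only orange bars above 0 are those of the uH2A antibodies.

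H3K27me3, the PRC2 mark, had 80 control peaks in the clusters, 0.226% of its library (interval 0.179 to 0.281), where the windows make up 0.0233% of the chromosomes. That is 9.72 times the mean density of the library, at which 8.23 peaks would lie there. HOXD had 46 peaks covering 16225 bp, 10.8% of its window, HOXB had 13 covering 4675 bp, HOXA 11 covering 3200 bp and HOXC 10 covering 2450 bp. The cover of HOXD was matched by few places. When the chromosomes were cut into 20642 consecutive tiles of its length, 150 kb, 87 tiles (0.421%) had as much cover or more. For HOXA that share was 4.71%, for HOXB 4.88% and for HOXC 5.78% of tiles of their own lengths. Any H3K27me3 peak at all was found in 21.1% of 160-kb tiles.

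The HOXD peaks formed a broken domain of 63.4 kb, from 176937601 to 177000975, at the HOXD13 side of the window. Those ending before 176950001 lay in the flank of about 20 kb. A gap of 14.5 kb after 176983125 set 44 of the 46 apart from the last 2, and the median gap was 350 bp. Joining peaks within 1000 bp left 11 blocks, the longest of 5.97 kb at 176947751 to 176953725, which starts in that flank. The tallest HOX peak of this mark, with a height of 152 in the undefined unit of the lists, was at 176957851 to 176958750, and 98.8% of the peaks of the library were lower. The longest, 1425 bp at 176955726 to 176957150 with a height of 117, was separated from it by 1 other peak. In HOXB the tallest peak (84.0) was at 46694951 to 46695800, in HOXA (69.8) at 27244301 to 27245325 and in HOXC (56.0) at 54347551 to 54348125.

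EED itself, the PRC2 subunit, had only 4 control peaks, 2 in HOXA and 2 in HOXD, where 3.04 would lie at the mean density of its library. HOXB and HOXC had none. An EED peak was in 27.2% of 160-kb tiles, the length of the HOXC window, and in 34.9% of 250-kb tiles, that of HOXB. Both HOXA peaks were short and low. The peak at 27150226 to 27150300, with a height of 26.2, lay on a BMI1 peak, and that at 27190951 to 27191025, with a height of 25.2, lay on RING1A, BMI1 and uH2A rabbit peaks. Neither lay on H3K27me3. In HOXD the EED peak at 176958026 to 176958200, with a height of 35.2, lay inside the tallest H3K27me3 peak together with the only uH2A peak of that cluster, at 176958001 to 176958250. The other, at 177065851 to 177065925, lay beyond the H3K27me3 domain, in the flank, with no other peak. The 80 H3K27me3 peaks of the clusters thus held 1 EED peak, 1.25% (0.0316 to 6.77), beside 1.92% over the library.

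RING1A, a PRC1 ubiquitin ligase, had 47 control peaks, 3.61 times its mean density. HOXA had 24, HOXC 17, HOXB 6 and HOXD 0, in a library in which 46.2% of 160-kb tiles and 45.2% of 150-kb tiles held a peak. The tallest of each cluster were at 46691776 to 46691950 in HOXB (81.2), 54394001 to 54394150 in HOXC (74.0) and 27170676 to 27170950 in HOXA (73.0). The RING1A peaks of the clusters had a median length of 150 bp, against 225 bp for H3K27me3, and none was longer than 325 bp. Over the whole control libraries the medians were 125 and 200 bp. BMI1, the PRC1 partner, was found in 25.1% of 160-kb tiles and 31.7% of 250-kb tiles. It had 3 peaks in HOXA and 1 in HOXC, where 4.83 would lie at its mean density. They were at 27150126 to 27150375, 27190901 to 27191050 and 27225701 to 27225825, and at 54394076 to 54394150 on the tallest RING1A peak of HOXC. The 0 of RING1B, the other ligase, is little below the 1.20 peaks at its mean density. It allows a share of up to 0.0582% of the 5155 RING1B peaks, and 4.31% of 160-kb and 5.67% of 250-kb tiles held one.

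The uH2A mark, like RING1A, had its most peaks in HOXA with either antibody and its fewest in HOXD. The mouse antibody had 35 control peaks, 4.44 times its mean density, with 15 in HOXA, 11 in HOXC, 9 in HOXB and 0 in HOXD. The rabbit antibody had 16, 2.54 times its mean density, with 7, 4, 4 and 1 in HOXA, HOXB, HOXC and HOXD. At least 1 peak was in 36.1% of 160-kb tiles for the mouse antibody and in 31.6% for the rabbit antibody. For the mouse antibody it was 34.9% of 150-kb tiles, the length of the HOXD window. The tallest mouse peak (60.1) was at 46620801 to 46621100 in HOXB, and the tallest rabbit peak (49.0) at 27231701 to 27231975 in HOXA. Of the 16 rabbit peaks, 6 lay on a mouse peak, 37.5% (15.2 to 64.6), beside 28.3% over the library, which is within that interval.

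**Figure D2:**
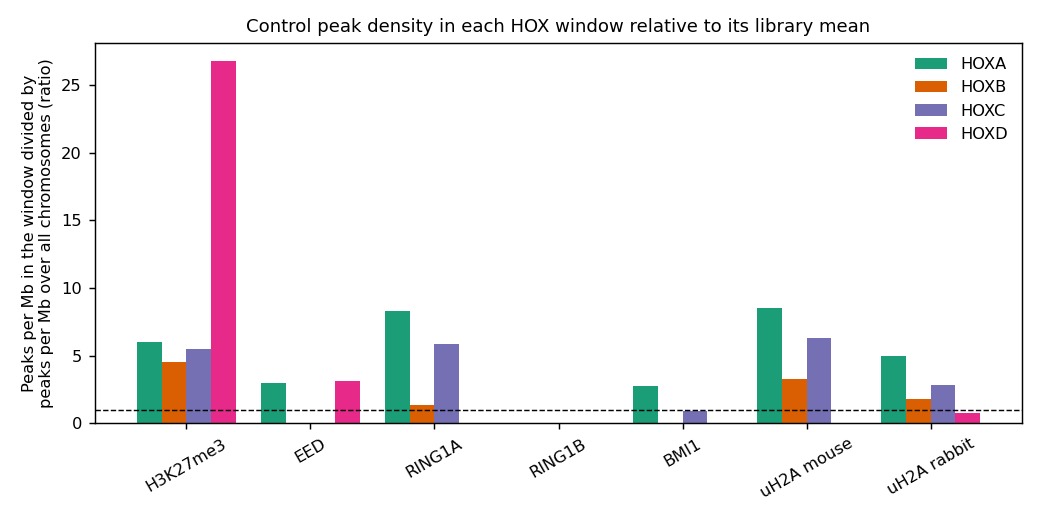
Control peaks per Mb in each window divided by the mean peaks per Mb of the same library (vertical axis, a ratio) for each antibody (horizontal axis) and cluster (colours), with a dashed line at 1. H3K27me3 in HOXD reaches 26.8, while RING1A and the mouse uH2A antibody reach 8.29 and 8.56 in HOXA and 0 in HOXD.

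HOXD had a dense H3K27me3 domain and no peak of any PRC1 protein. Among the 87 tiles with as much H3K27me3 cover or more, 5 (5.75%) had no RING1A peak, and the same 5 had no peak of RING1A, RING1B or BMI1. The median of these tiles was 9 RING1A, 13.0 uH2A rabbit and 6 uH2A mouse peaks, against 0, 1 and 0 in HOXD. RING1B and BMI1 were absent more often, from 70.1% and 25.3% of the 87. None of the 87 touches the HOXD window, which straddles 2 tiles. Tiles start at fixed positions, whereas the windows were set around the genes.

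The height is a column of the authors' lists that no label or header defines. It was read as peak height from its values, and it ranks peaks only within a library. For 5 antibodies the median HOX peak lay in the middle of its library, and for EED near its low end. The median HOX peak was taller than 57.5% of its library for H3K27me3, 60.9% for RING1A, 54.3% for BMI1, 47.8% for uH2A rabbit, 38.6% for uH2A mouse and 8.75% for EED. Among H3K27me3 peaks, 22 of 80 were taller than at least 75% of their library, as were 10 of 47 for RING1A and 4 of 35 for uH2A mouse. No HOX peak had a height of 0.

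**Figure D3:**
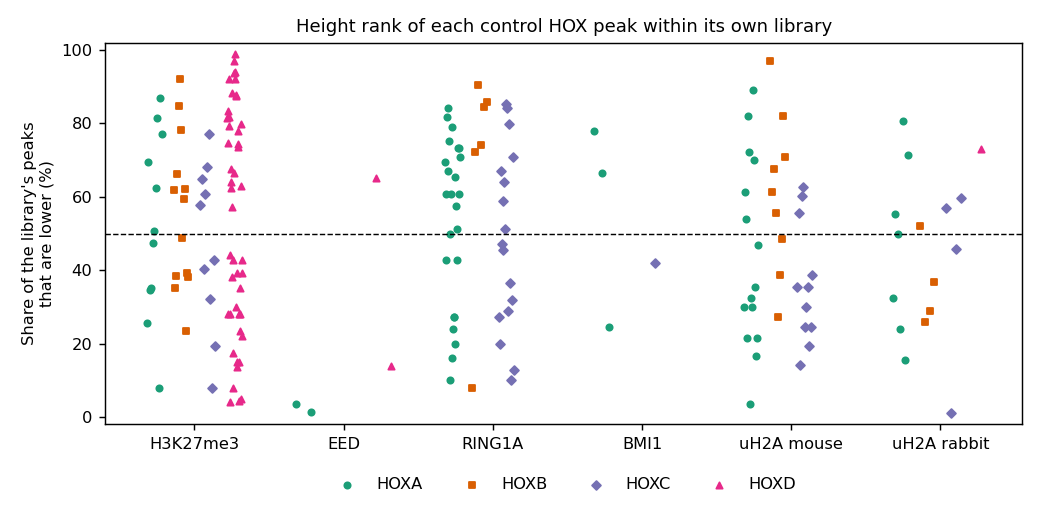
Share of the peaks of the same control library that are lower (vertical axis, percent) for each control HOX peak, by antibody (horizontal axis) and cluster (colour and shape), with RING1B left out because it has no peak. Most antibodies spread over the whole range, and 98.8% of the H3K27me3 library lies below the tallest HOXD peak.

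Where several marks met, they met mostly in HOXA and HOXC. Merging overlapping control peaks gave 142 regions in the clusters, and 30 of them (21.1%) had 2 or more antibodies, beside 26.8% of 128364 regions over the series. The share was 13 of 39 in HOXA, 11 of 30 in HOXC, 5 of 26 in HOXB and 1 of 47 in HOXD. No region had more than 4 antibodies, beside 1.21% of regions over the series with 5, 0.297% with 6 and 0.0888% with 7. Regions with 4 were 1.41% in the clusters and 2.83% over the series. The 2 regions with 4 were both in HOXA: 27190876 to 27191100 with EED, RING1A, BMI1 and uH2A rabbit, and 27231701 to 27232075 with RING1A, H3K27me3 and both uH2A antibodies. The most common sets were H3K27me3 alone (66 regions), RING1A alone (23), uH2A mouse alone (16) and RING1A with uH2A mouse (8).

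A larger share of RING1A peaks lay on H3K27me3 in the clusters than over the library. Of the 47, 9 lay on an H3K27me3 peak, 19.1% (9.15 to 33.3), beside 6.28% over the library. These were 6 in HOXA, 2 in HOXB and 1 in HOXC. BMI1 was met less often, by 2 of 47 (4.26%, 0.520 to 14.5) beside 21.8%. Both differences are larger than the counting error, but neighbouring peaks of 1 cluster are not independent. H3K27me3 peaks were also 6.02, 4.55 and 5.47 times as dense in HOXA, HOXB and HOXC as over their library. Whether the share of RING1A peaks on H3K27me3 goes beyond that density was not tested. The overlap of RING1A with uH2A was close to that over the library, 27.7% (15.6 to 42.6) beside 27.1% for the mouse and 14.9% (6.20 to 28.3) beside 14.7% for the rabbit antibody. Of the 35 uH2A mouse peaks, 5 lay on H3K27me3, 14.3% (4.81 to 30.3), beside 4.94% over the library, which is within that interval. None lay on EED (0 to 10.0) beside 13.0%, and 1 on BMI1, 2.86% (0.0723 to 14.9) beside 16.9%, and both library values are above the interval. EED and BMI1 had only 4 peaks each in the clusters, so few peaks of another antibody could lie on them. The low shares on them, that of RING1A on BMI1 included, were limited by those counts, and no conclusion is drawn from them.

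PRC1 and uH2A peaks lay both inside and outside the stretch that held the H3K27me3 peaks. In HOXA all 11 H3K27me3 peaks lay in 21.3 kb at the HOXA13 side, from 27224501 to 27245800. RING1A ran through the cluster from 27135001 to 27245725, with 17 of its 24 peaks on the HOXA2 side of the first H3K27me3 peak, and so did the mouse uH2A antibody, with 11 of 15. The H3K27me3 stretch was 13.3% of the HOXA window and held the other 7 RING1A (29.2%) and 4 uH2A mouse peaks (26.7%). These counts are small and no interval was computed. The flanks of the window, which held no peak, also count as outside, so no difference in density is drawn from them. In HOXC, too, most RING1A and uH2A mouse peaks lay outside the H3K27me3 stretch. Its H3K27me3 peaks lay in 40.5 kb, from 54344576 to 54385100, and 11 of 17 RING1A and 6 of 11 uH2A mouse peaks lay beyond them towards HOXC4. That stretch was 25.3% of the HOXC window and held 29.4% of its RING1A and 36.4% of its uH2A mouse peaks, again from small counts. In HOXB the H3K27me3 peaks were in the middle of the window, from 46691751 to 46725325, with RING1A and uH2A mouse peaks on both sides, and 2 of 6 RING1A peaks in 13.4% of the window. On the HOXB13 side, named for a homeobox factor best known in prostate and singled out after its values were seen, no H3K27me3 peak was found. The peaks beyond the last H3K27me3 peak were RING1A and uH2A mouse peaks at the same positions, 46801826 to 46801950, one of each near 46755651 to 46755900, and a uH2A rabbit peak at 46804451 to 46804525. Summed over the clusters, the stretches between the first and last H3K27me3 peak made up 22.1% of the windows and held 14 of 47 RING1A, 10 of 35 uH2A mouse and 9 of 16 uH2A rabbit peaks.

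**Figure D4:**
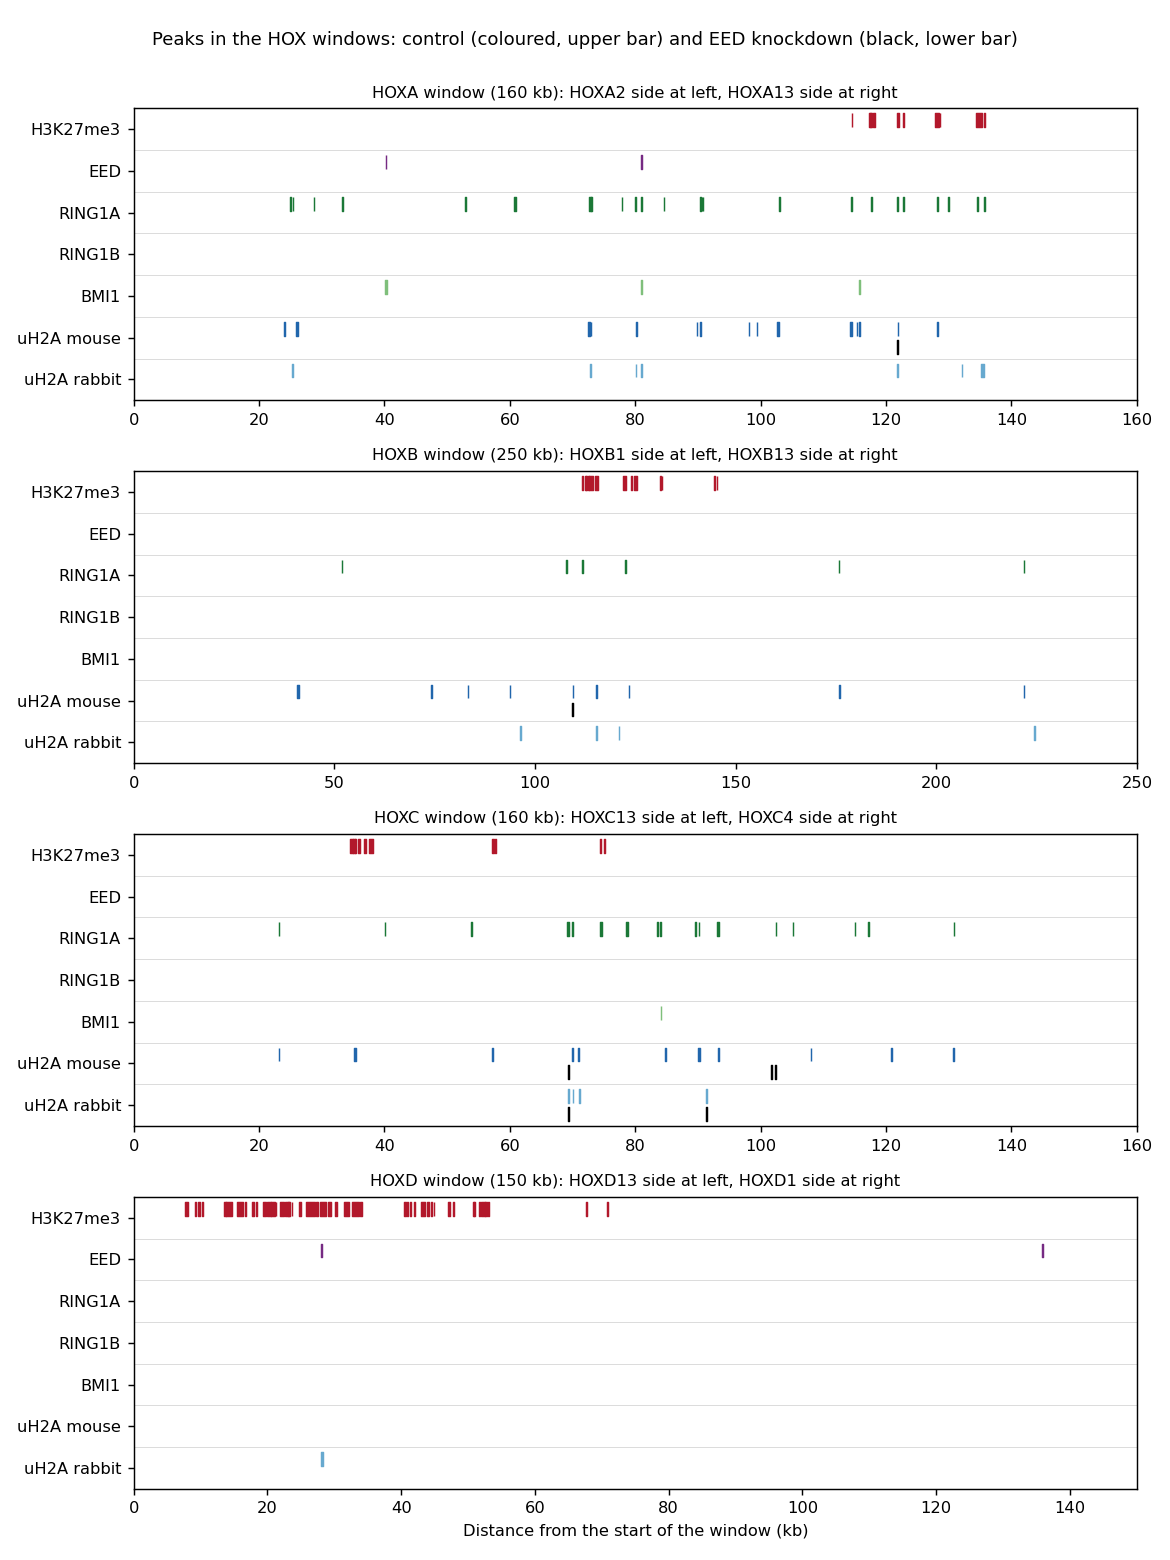
Peaks in the 4 HOX windows, with the distance from the start of the window in kb (horizontal axis) and 1 row per antibody. Coloured upper bars are control and black lower bars EED knockdown peaks, drawn to scale with an outline that keeps short peaks visible. The 46 HOXD H3K27me3 peaks fill the HOXD13 side, the 11 of HOXA lie at the HOXA13 side, and 7 black bars remain.

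In EED knockdown cells nearly all of these peaks were gone. Of the 80 H3K27me3, 47 RING1A, 4 EED and 4 BMI1 control peaks, none was kept, that is, overlapped by a knockdown peak of its own antibody. For uH2A mouse 2 of 35 were kept, 5.71% (0.700 to 19.2), and for uH2A rabbit 2 of 16, 12.5% (1.55 to 38.3). These shares have to be read against the losses over whole libraries. Over the series 3.81% of H3K27me3, 4.07% of RING1A, 5.79% of EED, 21.1% of BMI1, 10.7% of uH2A mouse and 28.8% of uH2A rabbit control peaks were kept, and 20.7% for RING1B, which had none in the clusters. A count of 0 allows up to 3 peaks, which is 3.75% for H3K27me3 and 6.38% for RING1A, and the exact interval reaches 4.51% and 7.55%. With 4 peaks each, EED and BMI1 have an exact interval that reaches 60.2%. The library value is within the exact interval of the HOX share for each of these antibodies. A greater loss in the clusters than elsewhere was not detectable from the kept shares.

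The drop can also be set against that in the number of peaks. At the knockdown to control ratio of its whole library, 0.119, the 80 control peaks would leave 9.51 knockdown peaks, and none was found. For RING1A 3.42 would be left and none was found, for uH2A mouse 7.40 and 5 were found, and for uH2A rabbit 6.69 and 2 were found. The covered length of uH2A rabbit fell from 2925 to 275 bp, a ratio of 0.0940 beside 0.490 over its library, and that of uH2A mouse from 5550 to 675 bp, a ratio of 0.122 beside 0.179. H3K27me3 fell from 26550 bp to 0 and RING1A from 6650 bp to 0. Peaks of a library are not spread evenly, so these numbers carry no error. Any knockdown peak was found in 3.05% of 160-kb tiles for H3K27me3, 3.27% for RING1A, 3.98% for EED, 1.74% for RING1B, 6.74% for BMI1, 14.3% for uH2A mouse and 21.4% for uH2A rabbit.

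Places with as much control signal as a cluster give another background. Among 918 tiles of 160 kb whose control cover was within 1.5-fold of the 1450 bp of HOXA, 92.7% held a knockdown uH2A rabbit peak, and HOXA held none. The rabbit antibody also had no knockdown peak in HOXB, with a share of 67.4% of 1080 tiles of 250 kb, and none in HOXD, with 42.4% of 1805 tiles of 150 kb. HOXC had 2, with a share of 80.6%. For the mouse antibody HOXA, HOXB and HOXC had 1, 1 and 3 knockdown peaks, where 82.8%, 68.2% and 74.6% of such tiles held at least 1. For H3K27me3 an empty window was the usual case, since knockdown peaks were in 15.5% of 168 tiles covered like HOXD, 13.2% of those like HOXB, 8.99% like HOXA and 8.60% like HOXC. For RING1A the shares were 23.1% of the tiles covered like HOXA and 18.8% of those like HOXC.

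The 7 knockdown peaks can be named one by one. In HOXA the mouse antibody kept 27231801 to 27231950, inside the region with 4 antibodies in control cells. In HOXB it kept 46689301 to 46689450, which shares 25 bp with its control peak. In HOXC the rabbit antibody kept 54379326 to 54379425 and 54401226 to 54401400, and the second was taller than 59.7% of its library in control and 59.6% in knockdown cells. The remaining 3, all of the mouse antibody in HOXC, had no mouse control peak under them. One, at 54379201 to 54379350, lay on control RING1A and uH2A rabbit peaks and on a knockdown uH2A rabbit peak. The others, at 54411701 to 54411775 and 54412226 to 54412375, had no control peak of any antibody under them. Over the series 47.1% of knockdown uH2A mouse peaks and 30.2% of knockdown uH2A rabbit peaks were new in this sense, so 3 of 5 and 0 of 2 are counts too small to set apart.

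Distances from the windows to the nearest knockdown peak varied with the antibody and with the number of knockdown peaks on the chromosome, and no usual distance was computed. Chromosome 12 held only 15 knockdown H3K27me3 and 16 RING1A peaks. The nearest H3K27me3 knockdown peak was 2981 kb from the HOXB window, 14791 kb from HOXD, 15719 kb from HOXC and 20276 kb from HOXA. For RING1A these distances were 2986, 14791, 13826 and 16733 kb in the same order. The nearest RING1A, RING1B, BMI1 and H3K27me3 peaks to HOXD all lay at one place, within 162137551 to 162139125 on chromosome 2. A RING1B knockdown peak at 27102026 to 27102150 lay 7.85 kb outside the HOXA window, and the nearest uH2A rabbit peak 138 kb outside it. Outside HOXB the nearest uH2A rabbit peak was at 476 kb, and outside HOXC the nearest EED and RING1B peaks were at 415 and 513 kb.

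The libraries fall into 2 sets by culture description in the labels, EED with both uH2A antibodies and the remaining 4 antibodies. In the first set peaks in the clusters went from 55 in control to 7 in knockdown cells, and in the second from 131 to 0. Whole libraries fell too. Their knockdown to control ratios of peak number were 0.105 (EED), 0.211 (uH2A mouse) and 0.418 (uH2A rabbit) in the first set. In the second they were 0.0727 (RING1A), 0.119 (H3K27me3), 0.301 (BMI1) and 0.337 (RING1B). A decline was thus present within both sets, in the clusters and over whole libraries, and the antibody and the set cannot be told apart.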

How the data were processed

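ChIP-seq peak lists of 14 libraries were used. Reads were 40 nucleotides long, per the labels' protocols. The submitters' processing notes name Bowtie and hg19. Each deposited list is named for HPeak, a peak caller, and covers 1 library. Not given in the sources used here: versions, settings and input libraries. The deposited height, a signal, was identified from its values alone, since no header defines it. The negative score in the deposited lists was not used. Depth is unknown, so the number of peaks limits precision.

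Overlap meant at least 1 bp. A control peak overlapping a knockdown peak of its antibody was kept, otherwise lost. Cover was clipped to the windows. Tiles are consecutive stretches from each chromosome's start to the largest end in any list, unsequenced gaps included. The cover range of 1.5-fold for tiles was set after the data were seen. Members and lists were chosen with earlier results of these data known. Named regions are the tallest and longest peak per cluster and library, all peaks where a library had at most 5 in a cluster, kept and new peaks where at most 10, and the regions with most antibodies; of these, a selection is printed. Planned comparisons with other Polycomb target genes were not made, as no hg19 annotation was used. Overlap counting was tested on simulated lists. Python 3.11.15, numpy 2.4.6, pandas 2.3.3, scipy 1.17.1 and matplotlib 3.10.9 were used.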

Additional observations from a re-analysis of the deposited data

How the results depend on the processing

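Of 76 recomputed values, 40 had 0 as the reported value and say nothing about stability. Of the other 36, 25 stayed within 1.5-fold or within the counting interval of the reported value. When peaks below the median control height were dropped, control peaks in the clusters numbered 42 for H3K27me3, 29 for RING1A, 16 for uH2A mouse, 8 for uH2A rabbit, 2 for BMI1 and 1 for EED, and knockdown peaks 1 for uH2A rabbit and 0 for uH2A mouse. The share of uH2A mouse peaks kept was then 0%, as it was with equal numbers of peaks (0% of 4), and 2.86% with at least 50% of the peak covered. For uH2A rabbit it was 1 of 4 with equal numbers, 6.25% with at least 50% covered and 18.8% with a knockdown peak within 1000 bp, beside 12.5% as reported. Joining H3K27me3 peaks within 1000 bp left 24. Trimming the windows by 20 kb on each side moved no value by more than 1.5-fold. It left 69 of 80 H3K27me3 and 3 of 4 EED control peaks. With equal numbers, antibodies without a control peak left in the clusters gave no value. No paired analysis was possible because each group has 1 library and no replicate numbers.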
